A study of Mus musculus with 14 samples.

Results

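The 10 genes described here carry out the work of a mature hair cell (HC): Otof, Slc17a8 and Cacna1d in transmitter release, Chrna9 and Chrna10 in the efferent receptor, Ocm, Pvalb, Calb1 and Calb2 in calcium buffering, and Slc26a5 in electromotility. They were chosen by name for their function, though with earlier results of these data known. All 10 were found among the 35976 gene symbols of both count tables. RNA-seq had been made from GFP-positive cells sorted from cochlear explants of mice with the Lfng-EGFP transgene, which labels supporting cells (SCs), after 24 h with 2 μM compound E (CompE), a γ-secretase inhibitor that blocks Notch signalling, or with DMSO. Explants were taken at postnatal day 0 (P0, given as P0 to P1 in the methods) or at P6, with 4 CompE and 4 DMSO libraries at P0 and 3 of each at P6. All groups carry the transgene, and a sort on Lfng-EGFP keeps any cell that still holds GFP, whatever its present identity. Whether late function genes follow the fate genes of the HC program was asked across both ages and both treatments.

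The libraries held 19415066 to 44430063 counts on genes, and values are given as RPM, the reads of a gene per 1000000 reads counted in its library. The GFP-positive cells carried SC markers (10 genes summed to 6080 to 10400 RPM in every library, with Sox2 and Prox1 above 0 throughout), and 10 structural HC markers such as Myo7a and Myo6 summed to 623 to 1720 RPM. HC transcripts were thus present in DMSO libraries too, and in these bulk samples more HCs among the sorted cells and more HC RNA per cell cannot be told apart. With CompE at P0, 7 of 7 Notch target genes had lower values and 5 of them passed the test, as given by edgeR. Summed glia markers lay at 501 to 564 RPM with CompE and 377 to 497 RPM with DMSO at P0, and mesenchyme markers at 1160 to 1330 and 903 to 1070 RPM. These sums lean on abundant genes, Sox10 (mean 352 RPM over all libraries) and Lum (1315 RPM), and the lists were mixed. At P0 only 1 of 6 mesenchyme markers had a log2 fold change above 0 (median -0.348). Of the 6 glia markers 4 did, with values from -1.05 to 0.746. The sums therefore do not show more mesenchyme or glia with CompE. The summed SC markers at P0 were 6710 to 7050 RPM with CompE and 6950 to 10400 RPM with DMSO. Neuron markers overlapped between all groups at 28.0 to 121 RPM, and immune, endothelial and muscle markers summed to at most 60.1, 10.8 and 0.824 RPM, with Cx3cr1, Pecam1 and Ckm at 0 in some libraries. The part of these other cell types in the results below was not tested.

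HCs turn the bending of their hair bundles into a voltage, and calcium that enters through voltage-gated channels then releases glutamate from ribbon synapses. Inner HCs send most of the signal to the brain, whereas outer HCs amplify sound by changing their length, a motion that prestin drives. Fate genes such as Atoh1 and Pou4f3, which encode transcription factors, act early in HC development, and the full set of release, efferent and motor proteins is acquired later, around the onset of hearing.

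The annotated promoters of the genes on which the results turn are printed here so that they can be read beside the values: Slc26a5 and Ocm, which differed between the ages, and Chrna9 and Chrna10, which had the most similar profiles of any members. Each run holds the 250 bases before the RefSeq start on GRCm38.p6, read 5′ to 3′ on the strand of the gene. Capitals mark the E-box CAGCTG, a form bound by basic helix-loop-helix factors such as ATOH1, or a match on either strand to TGGGAA, a core of sites for the Notch cofactor RBPJ. A further E-box, CAGATG, was searched too.
Slc26a5, chr5:21865605-21865854, minus strand: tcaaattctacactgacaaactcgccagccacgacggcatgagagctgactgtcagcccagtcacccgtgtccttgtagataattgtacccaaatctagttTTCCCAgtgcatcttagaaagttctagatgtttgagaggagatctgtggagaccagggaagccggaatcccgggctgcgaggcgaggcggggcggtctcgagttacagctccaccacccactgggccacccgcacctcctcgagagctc
Ocm, chr5:144050610-144050859, minus strand: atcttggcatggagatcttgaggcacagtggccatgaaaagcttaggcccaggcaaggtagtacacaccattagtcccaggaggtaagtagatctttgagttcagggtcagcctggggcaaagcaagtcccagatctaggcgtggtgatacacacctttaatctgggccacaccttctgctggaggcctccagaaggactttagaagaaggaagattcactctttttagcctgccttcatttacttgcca
Chrna9, chr5:65966874-65967123, plus strand: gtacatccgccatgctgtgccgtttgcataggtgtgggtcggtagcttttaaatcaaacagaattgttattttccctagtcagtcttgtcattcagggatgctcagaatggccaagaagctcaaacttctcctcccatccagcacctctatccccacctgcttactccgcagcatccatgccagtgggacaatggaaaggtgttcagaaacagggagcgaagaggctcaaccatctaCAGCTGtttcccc
Chrna10, chr7:102116714-102116963, minus strand: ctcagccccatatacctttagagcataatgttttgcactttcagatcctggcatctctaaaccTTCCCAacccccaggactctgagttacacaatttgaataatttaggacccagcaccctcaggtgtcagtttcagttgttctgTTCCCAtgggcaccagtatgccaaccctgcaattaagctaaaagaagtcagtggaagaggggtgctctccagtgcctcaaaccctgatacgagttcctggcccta
The Slc26a5 run held 1 match to TGGGAA, that of Chrna10 held 2, that of Chrna9 held 1 match to CAGCTG, and none of the 3 motifs was found in that of Ocm. On either strand and in windows of this length, CAGCTG stood in 13.0%, CAGATG in 14.4% and TGGGAA in 21.6% of 32851 RefSeq promoters, so such matches are common. RefSeq places the start of Ocm 23939 bases outside the GENCODE gene and that of Chrna9 32203 bases inside it, so the starts used by these cells may differ. Of the 10 genes, 7 had a promoter entry.

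The levels of the 10 genes spanned a wide range within the same cells. Per kilobase of exon (RPKM), Calb1, which encodes the calcium buffer calbindin, was the most abundant at P0 with DMSO at 57.3 ± 27.6 RPKM (SD, n = 4). Pvalb (parvalbumin) followed at 40.6 ± 14.6, Calb2 (calretinin) at 39.9 ± 13.9 and Otof (otoferlin, the calcium sensor of vesicle fusion) at 10.4 ± 4.86 RPKM. Chrna10 and Chrna9, the subunits of the nicotinic receptor that receives efferent input, stood at 8.64 ± 4.61 and 8.16 ± 4.06 RPKM. Ocm (oncomodulin, the calcium buffer of outer HCs), Slc26a5 (prestin), Cacna1d (the pore of the CaV1.3 calcium channel of the ribbon synapse) and Slc17a8 (VGLUT3, which loads vesicles with glutamate) were lowest, at 4.71 ± 3.67, 1.96 ± 1.40, 1.02 ± 0.460 and 0.380 ± 0.177 RPKM. Only 2 of the 9 steps in this order, from Calb2 to Otof and from Cacna1d to Slc17a8, separated the ranges over the 4 libraries.

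At P6 with DMSO the order had changed at its top. Ocm was first at 255 ± 153 RPKM (SD, n = 3), above Calb1 at 91.0 ± 41.0, Calb2 at 65.0 ± 44.7 and Slc26a5 at 36.2 ± 25.3 RPKM. Pvalb stood at 26.1 ± 17.2, Otof at 14.3 ± 14.7, Chrna10 at 10.1 ± 5.45, Chrna9 at 10.0 ± 5.00, Cacna1d at 1.63 ± 1.34 and Slc17a8 at 0.981 ± 0.692 RPKM. Neighbours overlapped at every step but that from Chrna9 to Cacna1d, although Ocm exceeded Calb1, and Calb1 exceeded Calb2, in 3 of 3 libraries. The same step was the only one without overlap at P6 with CompE.

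**Figure D1:**
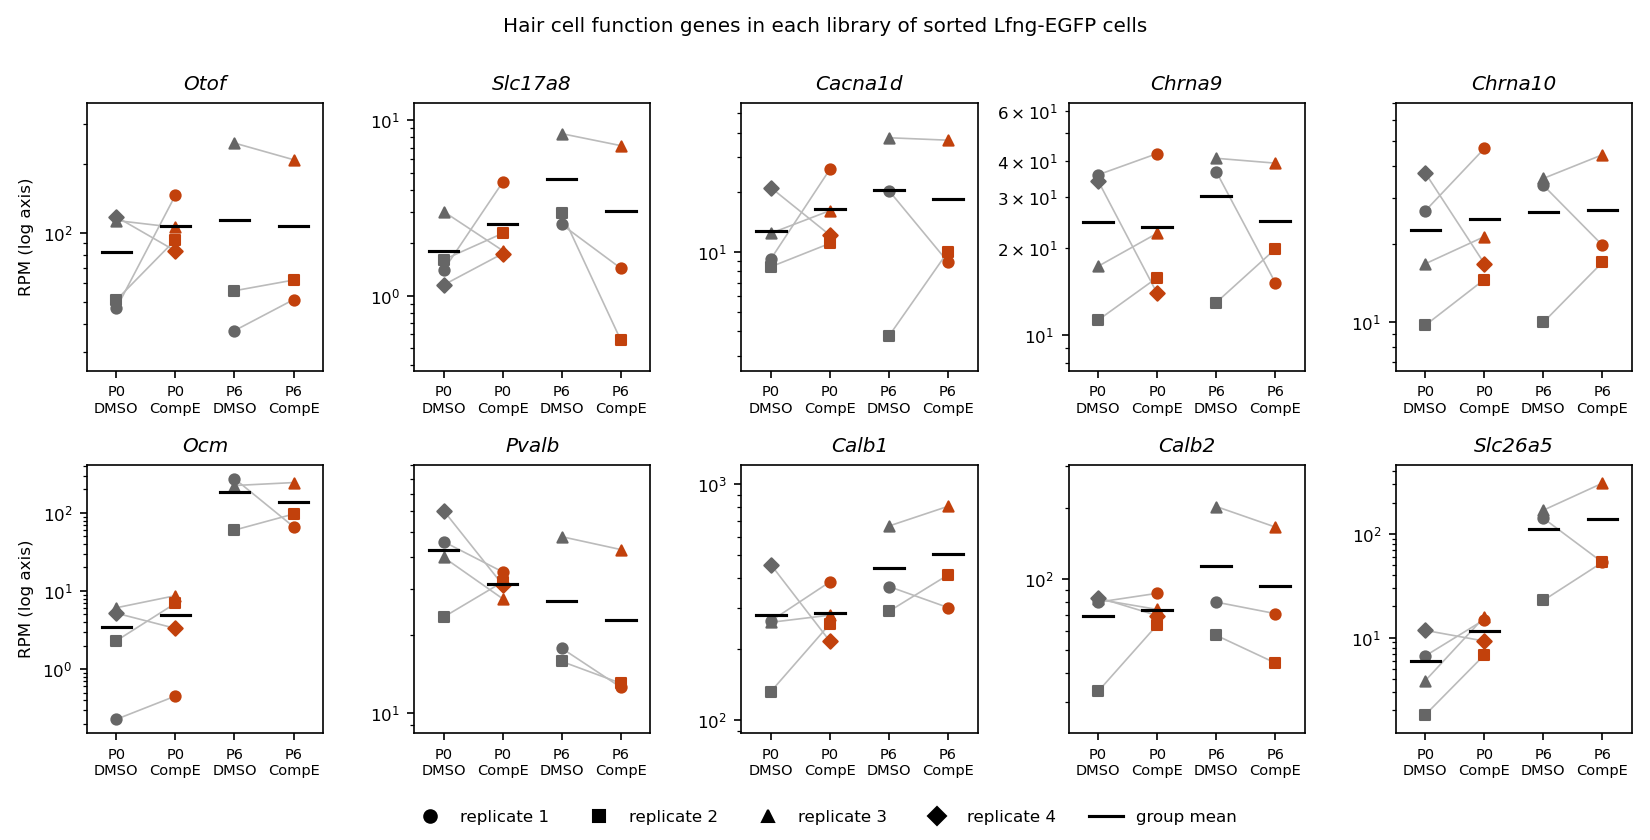
RPM (log axis, a scale of its own in each panel) of the 10 genes in each of the 14 libraries, with marker shapes for replicate numbers, gray lines joining the DMSO (gray) and CompE (orange) libraries of the same number and black bars for group means. Ocm and Slc26a5 lie higher at P6 than at P0 in every library of either treatment. The lines within each age run both up and down, except that those of Slc17a8, Pvalb and Calb2 at P6 all run down.

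At P0, none of the 10 function genes passed the test for a difference between CompE and DMSO. Of the 8 fate genes 1 did, and 5 did when libraries were compared within pairs. Both lists were drawn up with earlier results of these data known, so the contrast between them is a description. A gene was called where the edgeR adjusted p was 0.01 or less and the groups differed 2-fold or more, and 1.22% of the 15937 genes tested at P0 were called. At that background a list of 10 would be called less than 1 time on average, so the count of 0 does not set these genes apart from the rest. All 10 passed the filter on low counts, and 0 had an unadjusted p under 0.05 in edgeR. DESeq2, which called 1.72% of its genes, called 0 of the 10 as well. Slc26a5 alone had an unadjusted p under 0.05 there (DESeq2 unadjusted p = 0.0471, adjusted p = 0.337). Their log2 fold changes ran from -0.46 for Pvalb to 0.93 for Slc26a5, with 7 of 10 above 0 and a median of 0.191, beside a median of 0.007 over all genes tested. Of the 8 fate genes all had log2 fold changes above 0, with a median of 1.43, and Zfp503, a zinc finger gene, rose by 1.98 (SE 0.265, edgeR adjusted p = 0.00303). When the replicate number was added as a block, so that libraries were compared within pairs, 2.20% of genes were called, among them 5 fate genes and still 0 function genes. Those 5 were Zfp503, Atoh1 (log2 fold change 1.94, edgeR adjusted p = 0.000122), Pou4f3 (1.13, 0.00606), Hes6, an antagonist of HES1 (2.09, 7.82e-05), and Insm1, a zinc finger factor of early outer HCs (2.79, 7.82e-05). Without the block Atoh1 (edgeR adjusted p = 0.0563), Insm1 (0.0361), Pou4f3 (0.482) and Hes6 (just above 0.01) did not pass. DESeq2, run without a block, called Atoh1, Hes6, Insm1 and Zfp503 but not Pou4f3.

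**Figure D2:**
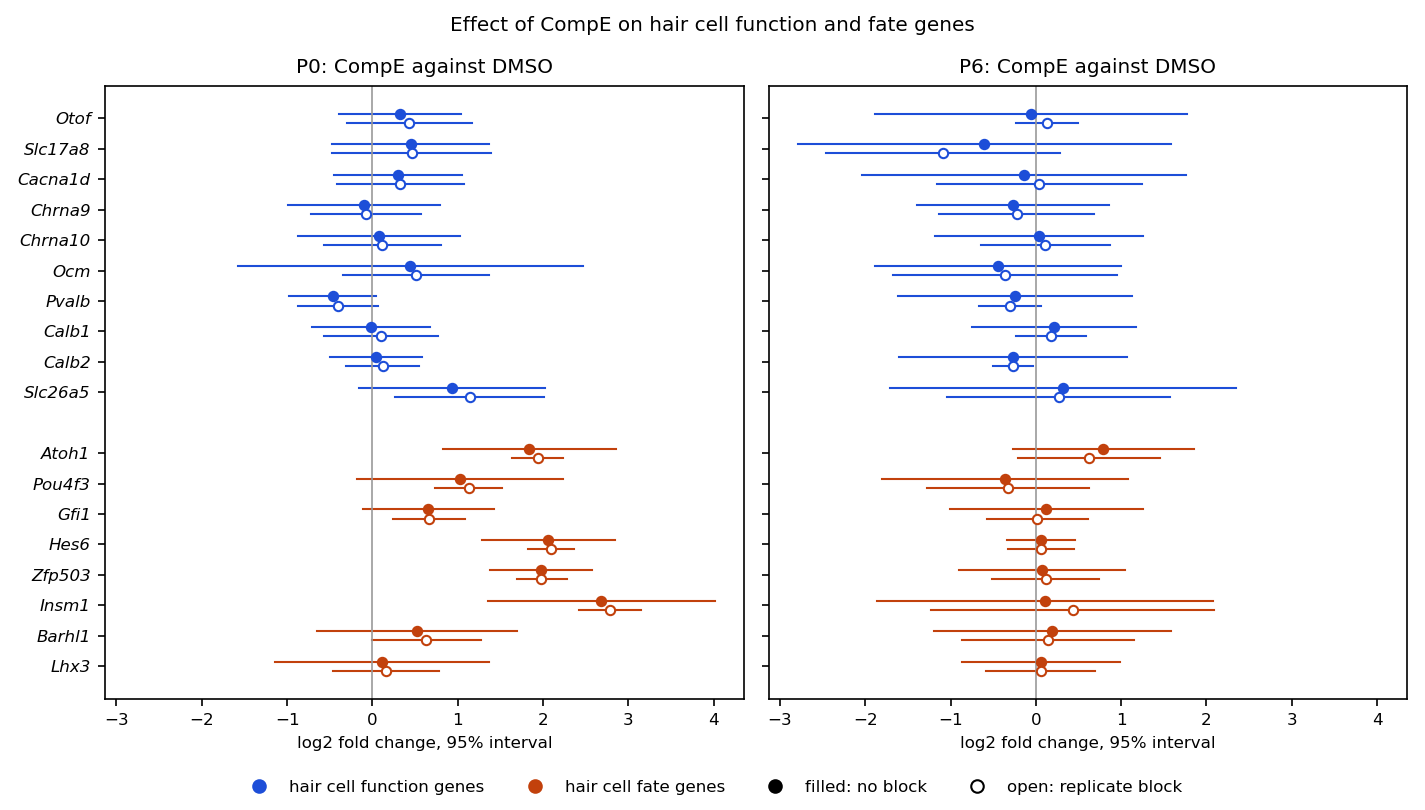
Log2 fold change of CompE against DMSO at P0 and at P6 with 95% intervals, for the 10 function genes (blue) and 8 fate genes (orange), from edgeR without a block (filled) and with the replicate block (open). At P0 the intervals of 9 of the 10 function genes cover 0 in both fits and that of Slc26a5 does so without the block, whereas Atoh1, Hes6, Zfp503 and Insm1 lie near 2 or above in both.

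The transmitter release genes had P0 values that overlapped between the treatments. Otof had 146, 93.2, 105.5 and 83.3 RPM with CompE in replicates 1 to 4 and 46.8, 50.8, 113 and 117 RPM with DMSO. Its CompE libraries lay at 83.3 RPM or above, while 2 DMSO libraries lay below that level and 2 within the range of the CompE libraries, and the log2 fold change was 0.32 (SE 0.319, edgeR adjusted p = 0.781). Slc17a8 was scarce, with 4.43, 2.27, 1.81 and 1.74 RPM with CompE and 1.40, 1.60, 3.02 and 1.15 RPM with DMSO, from 35 to 197 counts per library. Cacna1d had 26.1, 11.1, 16.2 and 12.2 RPM with CompE and 9.23, 8.44, 12.4 and 21.1 RPM with DMSO, with the highest CompE library in replicate 1 and the highest DMSO library in replicate 4. For Slc17a8 the log2 fold change was 0.45 (SE 0.414) and for Cacna1d 0.30 (SE 0.336), with edgeR adjusted p = 0.757 and 0.817. Exons of Cacna1d overlap Chdh on the opposite strand, which had 0.406 to 3.33 RPM as group means, and the use of strand in counting is not given in the sources used here.

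The efferent receptor genes varied together from library to library, and neither passed the test for the treatment. Chrna9 had 42.6, 15.8, 22.5 and 13.9 RPM with CompE at P0 and 35.9, 11.3, 17.3 and 34.2 RPM with DMSO. Chrna10, the partner subunit, had 46.7, 14.6, 21.3 and 16.8 RPM with CompE and 26.8, 9.71, 16.8 and 37.5 RPM with DMSO. In both genes replicate 1 was the highest CompE library and replicate 2 the lowest DMSO library. Their log2 fold changes were -0.10 (SE 0.400, edgeR adjusted p = 0.964) and 0.08 (SE 0.426, 0.972). With the replicate block the 95% intervals ran from -0.718 to 0.571 for Chrna9 and from -0.571 to 0.8 for Chrna10, and neither reached a 2-fold change in either direction. Exons of Chrna10 overlap Art1 on the opposite strand, at 0.51 to 1.41 RPM as group means against 22.7 to 27.0 RPM for Chrna10.

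Of the calcium buffers, none of the 4 was called at P0. Calb1 had 385.5, 255, 278 and 216 RPM with CompE and 263, 132, 259.5 and 456.5 RPM with DMSO, and the DMSO libraries reached both below and above those with CompE. The values of Calb2 were 86.9, 63.8, 74.2 and 69.9 RPM with CompE and 79.7, 33.4, 81.9 and 83.3 RPM with DMSO, where 3 of the 4 DMSO libraries lay close together. Pvalb had 35.0, 32.0, 27.6 and 31.2 RPM with CompE and 45.7, 23.4, 39.8 and 60.2 RPM with DMSO, so that 3 DMSO libraries lay above all 4 CompE libraries and 1 below them. Its log2 fold change was -0.46 (SE 0.229, edgeR adjusted p = 0.444), the lowest of the 10 genes. Ocm was barely detected in replicate 1, with 20 counts or 0.450 RPM with CompE and 6 counts or 0.227 RPM with DMSO. In replicates 2 to 4 Ocm had 6.95, 8.72 and 3.31 RPM with CompE and 2.30, 6.10 and 5.19 RPM with DMSO, and its interval, from -1.58 to 2.47 on the log2 scale, left a 2-fold change in either direction within it. With the replicate block the interval of Ocm ran from -0.347 to 1.37, which held a 2-fold rise but no 2-fold fall, and those of Calb1 (-0.563 to 0.767), Calb2 (-0.307 to 0.547) and Pvalb (-0.869 to 0.0674) held no 2-fold change.

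Slc26a5 had the largest P0 log2 fold change of the 10 genes. Its values were 14.9, 6.80, 15.8 and 9.25 RPM with CompE and 6.66, 1.80, 3.84 and 11.7 RPM with DMSO. The group means differed 1.94-fold, the ranges overlapped, and 3 of 4 pairs of the same replicate number were higher with CompE. Without a block the log2 fold change was 0.93 (SE 0.489, edgeR adjusted p = 0.482). With the replicate block it was 1.14 (95% interval 0.269 to 2.01, edgeR unadjusted p = 0.0167), which did not pass after adjustment over all genes (adjusted p = 0.138). The value without a block rested in part on single libraries, since it was 1.5 without P0 DMSO replicate 4 and 0.63 without P0 DMSO replicate 2, and it ran from 0.581 without both libraries of replicate 3 to 1.59 without both of replicate 4.

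Within the P0 pairs, the median ratio of the function genes had the same sign as that of the structural HC markers in 4 of 4, while 6 of 8 fate genes were higher with CompE in every pair. In pair 1, 9 of 10 function genes were higher with CompE, with a median log2 ratio of 0.893, and 8 of 10 structural markers were higher (median 0.766). In pair 2 all 10 function genes and all 10 structural markers were higher, with medians of 0.73 and 0.918. Pair 3 was mixed, with 6 of 10 higher in either list and medians of 0.224 and 0.227. In pair 4 the direction turned, with 9 of 10 function genes and 9 of 10 structural markers lower with CompE (medians -0.722 and -0.443), and Slc17a8 was the function gene that stayed higher. The fate genes had medians of 1.36, 1.67, 1.81 and 1.32 in the 4 pairs, and 8, 8, 8 and 6 of 8 were higher. Atoh1, Pou4f3, Gfi1, Hes6, Zfp503 and Insm1 were higher with CompE in 4 of 4 pairs, which 17.4% of all genes tested were, while no function gene was. These ratios are a description of 4 pairs, and the difference between the lists was not tested. Replicates 3 and 4 share a batch in both treatments, so the labels do not settle which of their libraries form a pair. With these matched the other way, Slc26a5 alone of the function genes was higher with CompE in every pair. Its values in those pairs were then 15.8 against 11.7 and 9.25 against 3.84 RPM. The medians and the 17.4% above hold for pairs by number, and neither was computed for this matching.

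**Figure D3:**
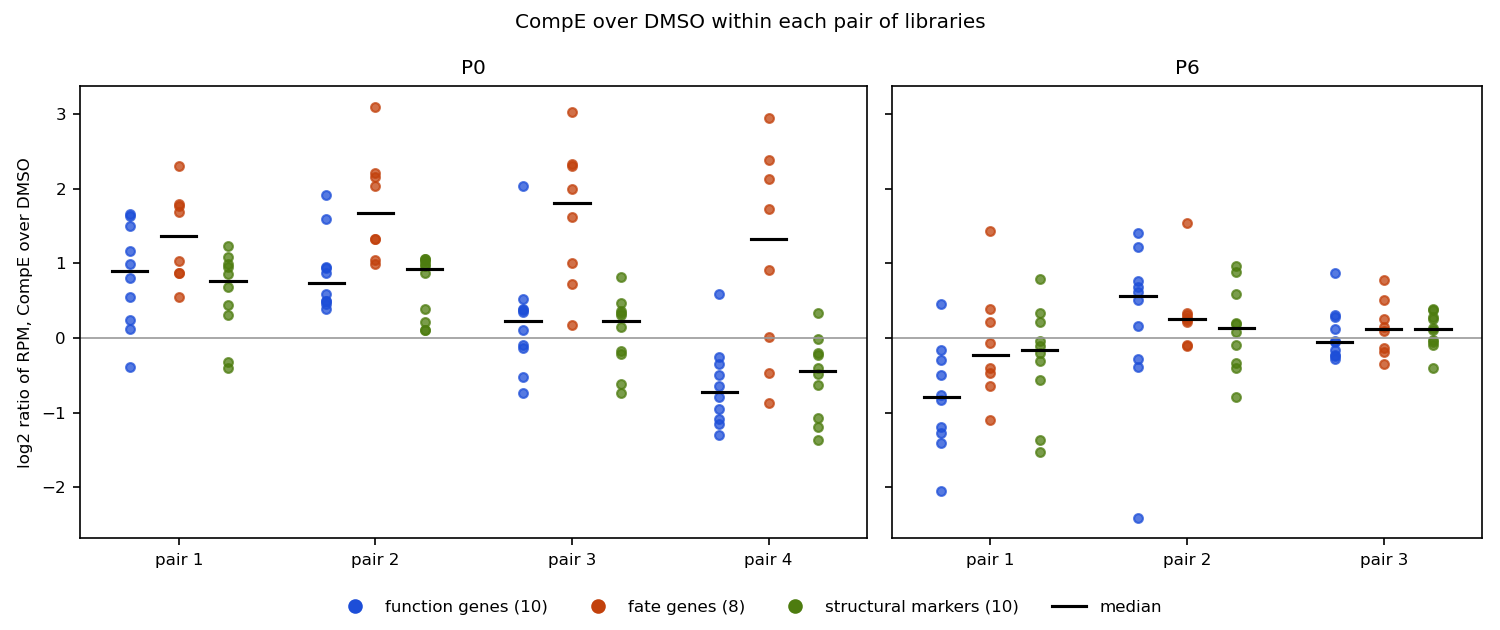
Log2 ratio of RPM, CompE over DMSO, within each pair of libraries of the same replicate number, 1 point per gene, for function genes (blue), fate genes (orange) and structural HC markers (green), with black bars for medians. At P0 the medians of the function genes range from 0.893 in pair 1 to -0.722 in pair 4, with those of the structural markers beside them, while those of the fate genes lie between 1.32 and 1.81.

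Other genes of these functions were read from wider lists. Of 33 genes of the ribbon and of vesicle release, of the efferent response and calcium extrusion, of calcium sensing and of outer HC identity, 31 were tested at P0. Without a block 0 of 31 were called by edgeR, 5 had an unadjusted p under 0.05 and their median log2 fold change was 0.107, while DESeq2 called Slc8a1 (1.30, DESeq2 adjusted p = 0.000145) and Insm1 (2.68, 0.00289). With the replicate block 3 of 31 rose with CompE, beside 2.20% of all genes called in that fit. These were Slc8a1, a sodium-calcium exchanger (log2 fold change 1.34, edgeR adjusted p = 0.00427), Lbh, a transcription cofactor of outer HCs (1.07, 0.00164), and Insm1, which stands among the fate genes as well. All 13 ribbon and release genes tested were uncalled in both fits, with a median of -0.0467 without a block. Among the 10 structural markers 0 were called, with a median of -0.000904. Myo6, the most abundant of them, had 763 to 945 RPM with CompE and 391 to 739 RPM with DMSO, and its log2 fold change was 0.74 (SE 0.204, edgeR adjusted p = 0.09).

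At P6 none of the 10 function genes passed the test for CompE against DMSO, nor did any other gene (0% of 15322 tested) in edgeR, where 289 had an unadjusted p under 0.05 and DESeq2 called 13 (0.0548%), none of them a function gene. The median log2 fold change of the 10 genes was -0.192, with 3 of 10 above 0, beside 0.001 over all genes. The spread was wide: Otof had 51.0, 62.1 and 209 RPM with CompE and 37.3, 55.7 and 247 RPM with DMSO. Slc26a5 had 53.1, 53.2 and 308 RPM with CompE and 141, 22.8 and 169 RPM with DMSO. Without a block the interval of Otof ran from -1.89 to 1.77 and that of Slc26a5 from -1.71 to 2.34 on the log2 scale, so that a 2-fold change in either direction lay within both. Of the wider lists described above, 0 of 31 genes tested were called at P6, and 2 had an unadjusted p under 0.05 in edgeR. The 8 fate genes had a median of 0.0931 and 0 were called. All 7 Notch target genes had lower values with CompE at P6 too, with a median log2 fold change of -1.61. Of these, 6 had an unadjusted p under 0.05 in edgeR. DESeq2 called Hes5 (-4.27, DESeq2 adjusted p = 0.000383), Hes1 (-1.89, 0.000132) and Nrarp (-1.85, 0.000787) lower. The summed Notch targets were 777 to 1600 RPM with CompE and 1720 to 3510 RPM with DMSO.

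Comparing libraries of the same batch narrowed some of these P6 intervals. With the block, Otof had a log2 fold change of 0.13 (95% interval -0.236 to 0.491) and Calb1 one of 0.18 (-0.234 to 0.59). Calb2, with 71.3, 44.1 and 166 RPM with CompE and 79.7, 57.7 and 202 RPM with DMSO, was lower with CompE in 3 of 3 pairs. Its log2 fold change was -0.27 (95% interval -0.5 to -0.0348, edgeR adjusted p = 0.646). Pvalb and Slc17a8 were lower in 3 of 3 pairs too, with ratios of -0.5 to -0.165 and -2.41 to -0.227 on the log2 scale, and 17.1% of all genes were lower in every pair. Slc17a8 had 1.43, 0.557 and 7.18 RPM with CompE and 2.54, 2.95 and 8.40 RPM with DMSO, the lowest from 16 counts. None of these passed the adjustment.

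The effect of CompE did not differ detectably between the ages for any of the 10 genes. In the test of the interaction over all 14 libraries, 0 of 10 were called, 0 had an unadjusted p under 0.05 and 0% of 17090 genes were called, with 811 at an unadjusted p under 0.05 and 33 (0.123%) called by DESeq2, none of them among the 10. The differences (effect at P6 minus effect at P0) had a median of -0.341 and ran from -1.05 (SE 1.00) for Slc17a8 to 0.24 (SE 0.550) for Calb1. With the replicate block 0.0936% of genes were called, again 0 of the 10 but 2 of the 8 fate genes, Hes6 (-2.02, edgeR adjusted p = 0.00454) and Zfp503 (-1.86, 0.00844). The widest interval in that fit was that of Slc17a8, from -3.16 to 0.0993. Without both libraries of batch 6, described below, the difference of Slc17a8 was -1.92 (95% interval -3.65 to -0.185, edgeR unadjusted p = 0.0328, adjusted p = 0.549) and that of Slc26a5 was -1.51 (-3.57 to 0.546) in place of -0.61, with a median of -0.328 over the 10 genes and 0 called. The calls of Hes6 and Zfp503 did not hold in DESeq2 (DESeq2 adjusted p = 0.0104 and 0.0312). With the replicate block and without batch 6 they stood at -1.94 and -1.90. Their edgeR adjusted p was then 0.033 and 0.0431, in a fit that called 0 genes. With 1 library of batch 6 left out, Slc17a8 stood at -2.61 without the CompE library and at -0.36 without the DMSO library. Age and batch coincide here, since no batch held both ages.

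Between P0 and P6, Ocm and Slc26a5 were the function genes that rose, both of them genes of outer HCs. In DMSO libraries 2 of the 10 genes were called higher and 0 lower, beside 3.74% and 3.38% of the 17090 genes tested. DESeq2 called the same 2 higher, beside 3.32% of its genes. Ocm, at 0.227, 2.30, 6.10 and 5.19 RPM at P0, had 275, 60.3 and 225 RPM at P6. Every P6 library exceeded every P0 library, and the means differed 54.0-fold. Its log2 fold change was 5.78 (SE 0.966, edgeR adjusted p = 0.000979, 95% interval 3.7 to 7.85). Slc26a5, at 6.66, 1.80, 3.84 and 11.7 RPM at P0, had 141, 22.8 and 169 RPM at P6, again without overlap and with means that differed 18.5-fold. Its log2 fold change was 4.27 (SE 0.779, edgeR adjusted p = 0.00175, 95% interval 2.6 to 5.94). Of all genes tested, 12.4% had every P6 DMSO library above every P0 DMSO library. P6 and P0 libraries came from different batches, so that age and batch cannot be told apart.

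The CompE libraries, which are separate samples from the same batches, gave the same pair of genes. A difference between batches would recur in them, so age and batch cannot be told apart here either. Ocm had 0.450, 6.95, 8.72 and 3.31 RPM at P0 and 66.6, 96.8 and 245 RPM at P6, with means 28.0-fold apart and a log2 fold change of 4.93 (SE 0.932, edgeR adjusted p = 0.00233). For Slc26a5 the means were 11.8-fold apart and the log2 fold change was 3.66 (SE 0.755, edgeR adjusted p = 0.00394). Calb1 had the next largest value among these libraries at 0.97 (SE 0.386, edgeR adjusted p = 0.0885). Higher calls made up 3.54% of genes tested among these libraries. Of all genes tested, 13.2% had every P6 CompE library above every P0 CompE library. Both treatments entered 1 fit with a common estimate of spread.

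The other 8 function genes were not called between the ages. Slc17a8 had the next largest log2 fold change in DMSO libraries at 1.41 (SE 0.703, edgeR adjusted p = 0.167), with 1.15 to 3.02 RPM at P0 and 2.54 to 8.40 RPM at P6. Calb2 (0.76), Calb1 (0.73), Cacna1d (0.73), Otof (0.50), Chrna9 (0.37) and Chrna10 (0.29) had values above 0 and edgeR adjusted p from 0.194 to 0.723. Calb1 had 132 to 456.5 RPM at P0 and 368, 289 and 666 RPM at P6 with DMSO, so the ranges met. Pvalb alone had a value below 0, at -0.58 (SE 0.441, edgeR adjusted p = 0.373), with 23.4 to 60.2 RPM at P0 and 17.8, 15.8 and 47.8 RPM at P6. The median over the 10 genes was 0.728, beside -0.05 over all genes. That median rested on batch 6, of which only the DMSO library, 1 of 3 at P6, enters the levels compared here. Without both libraries of batch 6 the median was 0.115, beside -0.092 over all genes, with 3 of 10 genes below 0. Slc17a8 then stood at 0.72, Calb1 at 0.36, Chrna9 at 0.13, Calb2 at 0.10, Chrna10 at 0.05 and Cacna1d at -0.01. Of the fate genes 8 of 8 had values below 0, with a median of -0.998 (-1.10 without batch 6), and Atoh1 was called lower at -2.97 (SE 0.540, edgeR adjusted p = 0.00171). The difference between the lists was not tested.

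**Figure D4:**
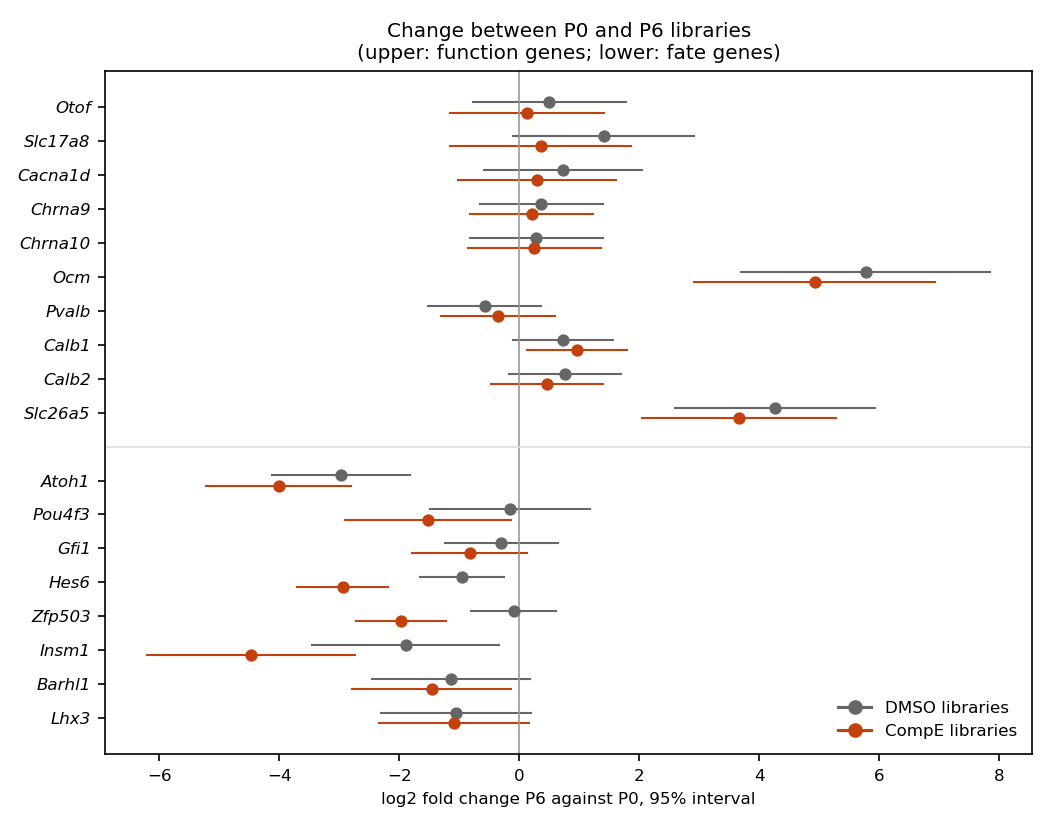
Log2 fold change of P6 against P0 with 95% intervals, in DMSO (gray) and CompE (orange) libraries, for the function genes (upper block) and fate genes (lower block). Ocm and Slc26a5 lie between 3.66 and 5.78 in both treatments, the other function genes lie between -0.58 and 1.41, with only the CompE interval of Calb1 (0.138 to 1.8) free of 0 among them, and the values of the fate genes lie below 0.

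The summed structural HC markers overlapped between the ages, at 709 to 1590 RPM at P0 and 623 to 1240 RPM at P6 with DMSO. Expressed per 1000 counts of those markers, Ocm had 0.224 to 5.78 at P0 and 96.9 to 328 at P6, and its means stood 64.6-fold apart with DMSO and 35.9-fold apart with CompE. Slc26a5 had 2.54 to 7.37 and 36.7 to 168 on that scale, 22.7-fold apart with DMSO and 14.8-fold with CompE. Slc17a8 with DMSO (2.69-fold), Calb1 (1.96-fold with DMSO and 2.54-fold with CompE) and Calb2 (1.83-fold and 1.74-fold) did not overlap between the ages either on this scale. Of all genes tested, 7.51% with DMSO and 22.0% with CompE were higher at P6 on it without overlap. This scale was chosen after the values had been seen, and 1 of the 10 markers, Tmc1, a subunit of the transduction channel, itself rose by 2.49 on the log2 scale (SE 0.530, edgeR adjusted p = 0.0047). Of the 31 wider genes tested, Lbh rose by 1.78 (SE 0.326, edgeR adjusted p = 0.00184) and none of the others was called by edgeR. DESeq2 called Lbh and 2 more, Ikzf2, a zinc finger factor of outer HCs (1.18, DESeq2 adjusted p = 0.00102), and S100a10, an S100 protein (1.01, 0.00149). At P0 Pvalb stood at 19.1 to 24.0 per 1000 marker counts with CompE and 33.0 to 45.1 with DMSO, without overlap. Of all genes tested at P0, 9.68% were lower with CompE without overlap on this scale, and Myo6, which had higher values with CompE, makes up much of that sum.

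The 2 libraries of batch 6, replicate 3 at P6, stood apart for these genes. With CompE, replicate 3 was the highest of 3 for 10 of 10 function genes, at 2.25 to 7.21 times the mean of the other libraries (median 3.17). With DMSO it was highest for 9 of 10, at 1.34 to 5.30 times (median 2.46), the exception being Ocm. Of the structural markers, 9 of 10 were highest there in each treatment, with medians of 2.20 and 1.75. Of the fate genes, 4 of 8 were highest there with CompE and 5 of 8 with DMSO, with medians of 1.68 and 1.40. The share over all genes was not computed. Without batch 6, Ocm and Slc26a5 were still called between the ages in DMSO libraries, at 5.66 (edgeR adjusted p = 0.00243) and 3.87 (0.00187), beside 3.41% of genes called higher. Pvalb was then called lower at P6, at -1.21 (SE 0.280, edgeR adjusted p = 0.00957), where 3.95% of genes were called lower. Pvalb is also expressed by spiral ganglion neurons, whose summed markers had 43.5 and 46.1 RPM in the 2 P6 DMSO libraries of that comparison, below all 4 P0 DMSO libraries (48.3 to 95.2 RPM). The genes of that sum did not move alike. Tubb3 was called higher at P6 in the same fit (2.72, edgeR adjusted p = 0.00331). With all libraries DESeq2 called Tubb3 (3.07) and Stmn2 (1.79) higher and Elavl4 (-3.87) lower. The part of neurons in the call of Pvalb was not tested. Otof, at 0.50 with all libraries, was at -0.70 without batch 6, so no direction can be given for it. Markers of other cell types were higher in batch 6 as well. Mesenchyme markers summed to 3310 RPM with CompE and 3950 RPM with DMSO, against 895 to 2450 RPM in the 12 libraries outside batch 6, and immune and blood markers to 60.1 and 20.02 RPM against 0.275 to 7.19 RPM. Endothelial markers summed to 10.2 and 10.8 RPM against at most 4.73 RPM, and neuron markers to 103 and 121 RPM against 28.0 to 47.3 RPM in the other P6 libraries. The summed SC markers were lower there, at 6080 RPM with CompE and 6740 RPM with DMSO. In the other P6 libraries they had 7030 to 7120 and 8330 to 8990 RPM. Notch target genes were lower too, at 777 and 1720 RPM against 1430 to 1600 and 3130 to 3510 RPM. The part of these cell types in the higher levels of batch 6 was not tested.

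Profiles over the 14 libraries were compared by the root mean square difference of mean-centred log2 values, with no test. Chrna9 and Chrna10 were each other's closest gene, at 0.228. Cacna1d was closest to Ap3b2 (0.316) and Espnl (0.325), Otof to Ppm1e (0.372) and Dfnb59 (0.400), and Calb1 to Ckmt1 (0.246) and Kncn (0.299). Calb2 was closest to Asic1 (0.279) and Kncn (0.288), and Pvalb to Nefl (0.298), a neurofilament gene of neurons, and Ica1l (0.305). Slc17a8 had no close match (Tnfaip8l2 at 0.581 and Zfhx4 at 0.592). Ocm and Slc26a5, whose own SDs were 3.31 and 2.19 on the log2 scale, lay nearest to AI593442 (0.904) and Serpinb1a (1.08), and to Osbp2 (0.822) and Fxyd5 (0.850). Library depth and the amount of HC RNA are shared by all genes of a library.

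The genes lie on GRCm38 at chr5:30367062-30461932 (Otof), chr10:89574020-89621253 (Slc17a8), chr14:30039939-30491455 (Cacna1d), chr5:65934921-65977326 (Chrna9), chr7:102111266-102116828 (Chrna10), chr5:144019804-144026670 (Ocm), chr15:78191114-78206400 (Pvalb), chr4:15881264-15908064 (Calb1), chr8:110137502-110168210 (Calb2) and chr5:21810655-21865604 (Slc26a5). Chrna9 and Calb1 are on the plus strand and the others on the minus strand.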

How the data were processed

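RNA-seq reads of sorted GFP-positive cells were trimmed by the authors with Trim Galore 0.6.0 and cutadapt 1.15 (submitters' processing notes), mapped with STAR to mm10 (GRCm38), and deposited as raw counts per gene, 1 table per age. Which annotation and strand setting were used is not given in the sources used here. Full-length cDNA was amplified without molecular identifiers, so counts of a gene are not independent molecules. The labels do not say whether replicates came from separate animals, and p-values measure the spread between these libraries. No 2 replicates agreed within sampling noise.

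The 10 genes and all lists were chosen with earlier results of these data known. RPM is a count over the total of the library, and RPKM uses the summed exon length of GENCODE vM21. Tests used edgeR 4.0.16 in R 4.3.3 (TMM, filterByExpr with a minimum count of 10, quasi-likelihood) over all genes, with Benjamini-Hochberg adjustment, called at 0.01 and 2-fold. Each age was fitted alone. The interaction and the comparison of ages used all 14 libraries. The fits were tested on simulated data. Intervals are 95%. DESeq2 1.42.0, other scaling, no filter, blocks and left-out libraries were alternatives.

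By the labels, each replicate number stands for a batch, and replicates 3 and 4 at P0 share one. Deviations of the same-numbered libraries from their group means correlated across genes at 0.144 to 0.456 at P0 and 0.251 to 0.605 at P6, and the block therefore used the numbers as pairs. Every one of the 10 genes was named, with fate genes, called genes of the wider lists and the 2 closest profiles per gene, of which the second for Chrna9 and for Chrna10 is not reported here. A scale per HC marker count, the fits without batch 6 and the CompE libraries in the comparison of ages were chosen after seeing the data. The biological coefficient of variation was 27.2% at P0, 46.7% at P6 and 38.3% over all 14 libraries, and this spread, more than counting error, sets the precision at these depths.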

Additional observations from a re-analysis of the deposited data

Results flagged for a closer look

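Calb2 in P0 DMSO replicate 2, at 33.4 RPM, stood far below the remaining 3 P0 DMSO libraries at 79.7 to 83.3 RPM, a gap of 0.927 of the whole range. Of 20 groups of 4 libraries examined for the 10 genes, this was the 1 so marked, and chance marks about 1 in 20. The same library was the lowest of its group for Slc26a5, Chrna9, Chrna10, Cacna1d, Pvalb and Calb1, and its summed structural HC markers, 709 RPM, were the lowest of the P0 libraries.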

How the results depend on the processing

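The counts of function genes called did not move under any alternative run, except that 3 in place of 2 were called between the ages without batch 6. The number of all genes called at P0 (195) was 617 with adjusted p taken at 0.05 and any fold, 443 with DESeq2, 350 with the replicate block, 334 with the batch as a block, 117 with all 14 libraries in 1 fit, and 1 to 225 with libraries left out, the fewest without both libraries of replicate 4. At P6 (0 genes) it was 13 with DESeq2. For the interaction (0) it was 2 at an adjusted p of 0.05, 33 with DESeq2, 1 with no filter on low counts, 16 with the replicate block and 0 to 2 with libraries left out. Between the ages (1216) it was 3840 at an adjusted p of 0.05, 1993 with DESeq2, 727 with DMSO libraries only and 804 to 1260 with libraries left out, the fewest without P6 DMSO replicate 2. The replicate block changed no call of a function gene.

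Of 770 alternative values for single function genes, 691 kept direction and side of the threshold, 78 changed sign (68 with libraries left out) and 1, Pvalb between the ages without batch 6, newly passed. None of the values that changed sign was called. The other 10 changes of sign were Calb1 at P0 (0.0698 with the batch block, 0.102 with the replicate block), Otof at P6 (0.127 with the replicate block, 0.314 with it and without batch 6), Cacna1d at P6 (0.0395 and 0.102 in the same fits), Slc26a5 at P6 (-0.0988 in the latter fit), Chrna10 in the interaction (0.00838 with the replicate block), and Otof (-0.702) and Cacna1d (-0.00518) between the ages without batch 6. The cause was not tested.

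With libraries left out, the log2 fold changes that crossed 0 ranged, at P0, from -0.0295 to 0.64 (Otof), -0.0325 to 0.968 (Slc17a8), -0.119 to 0.762 (Cacna1d), -0.495 to 0.297 (Chrna9), -0.372 to 0.589 (Chrna10), -0.0118 to 0.876 (Ocm), -0.24 to 0.447 (Calb1) and -0.176 to 0.169 (Calb2). At P6 they ranged from -0.933 to 1.16 (Otof), -2.18 to 0.0968 (Slc17a8), -1.05 to 0.6 (Cacna1d), -0.729 to 0.16 (Chrna9), -0.473 to 0.437 (Chrna10), -1.13 to 0.285 (Ocm), -1.03 to 0.403 (Pvalb), -0.249 to 0.601 (Calb1), -0.923 to 0.414 (Calb2) and -1.0 to 0.927 (Slc26a5). In the interaction they ranged from -1.24 to 0.831 (Otof), -1.33 to 0.311 (Cacna1d), -0.615 to 0.235 (Chrna9), -0.538 to 0.419 (Chrna10), -0.55 to 0.863 (Pvalb), -0.219 to 0.614 (Calb1) and -0.957 to 0.365 (Calb2). Between the ages they ranged from -0.704 to 0.917 (Otof) and -0.00712 to 1.21 (Cacna1d). Ocm (5.38 to 6.22) and Slc26a5 (3.87 to 4.85) were called between the ages with any single library left out.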
